A study of Homo sapiens with 6 samples.

Results

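The genes described here are the ubiquitin-conjugating enzymes with UBE2 symbols and the deubiquitinases with USP symbols. They were chosen by symbol alone, from array probe sets that carry exactly 1 gene symbol in the platform annotation. UBE2C, UBE2L6 and USP18 were set aside, as were 4 pseudogene symbols. This left 66 of the 14884 named genes, 22 with UBE2 symbols and 44 with USP symbols. Each gene was represented by 1 probe set, and USP2 alone among them had several. One of the 44, USP6NL, fits the naming pattern but encodes a GTPase-activating protein of Rab proteins and not a deubiquitinase.

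The study used MM.1S, an established human multiple myeloma line, on 6 arrays of total RNA. Myeloma arises from plasma cells, the stage of the B lineage that secretes antibody. All 6 samples first received Cfz for 1 h; the name commonly stands for carfilzomib, a drug that blocks the proteasome. For the next 12 h one set of cells grew in DMSO, the solvent (3 arrays), and the other in ATRA at 10 µM (3 arrays). ATRA is all-trans retinoic acid, which activates the retinoic acid receptors. Both groups therefore carry the Cfz pulse, and cells without it were not analysed here. The model is 1 cell line, and whether its 3 arrays per group stand for separate cultures is not said in the labels. The p-values below therefore cover only the spread between these arrays, which may be technical.

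Ubiquitin is passed from an activating enzyme (E1) to a conjugating enzyme (E2) and then, with the help of a ligase (E3), to a protein. The E2 often sets which kind of ubiquitin chain is built, and chains linked through lysine 48 of ubiquitin mark proteins for the proteasome. Ubiquitin-specific proteases (USPs) are the largest family of enzymes that remove ubiquitin again. Myeloma cells secrete large amounts of antibody and depend on this system to clear misfolded proteins, which is the setting in which carfilzomib is used.

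Array medians lay between 9.40 and 9.76 in intensity units on a linear scale, and arrays correlated across genes at 0.990 to 0.992 within groups and 0.985 to 0.987 between groups. Of 12 plasma cell and myeloma markers 8 were measured. Their median log2 level was 9.89 with DMSO and 10.3 with ATRA, and POU2AF1 and CD27 were dim. CD38, SDC1 and XBP1 of these rose with ATRA. The other 5 did not pass, with differences from -0.31 for SLAMF7 to 0.25 for CD27 (IRF4 -0.17, POU2AF1 -0.25, MZB1 0.25). At an unadjusted p under 0.05 were 5 of the 8. Markers of other cell types, 31 measured of 53, had a median log2 level of 3.46 with DMSO and 3.48 with ATRA, and 0 of the 31 passed limma's test at an adjusted p of 0.05, with 1 at an unadjusted p under 0.05 (the highest level was 9.27, for TRAT1). Genes whose higher group mean lay under the 90th percentile of those markers, 5.06 on the log2 scale or an intensity of 33.3, are called dim below, because a change at that level is hard to judge. By this measure 20 of the 66 genes were dim, 5 E2s and 15 USPs.

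With ATRA, 1 of the 66 genes rose and 1 fell at an adjusted p under 0.05 (limma, two-sided, Benjamini-Hochberg adjustment over all 14884 genes). UBE2G1 was the gene that rose and USP1 the gene that fell. Together they are 3.03% of the 66, against 3.8% of all genes (1.73% higher and 2.07% lower). Among genes that were not dim the share was 2 of 46, or 4.35%, against 8.23%. The share of these genes that passed was thus no larger than that of the array as a whole. The median log2 change was -0.08 for all 66 and -0.09 for the 46, beside -0.01 for all genes and -0.06 for all genes that were not dim.

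**Figure D1:**
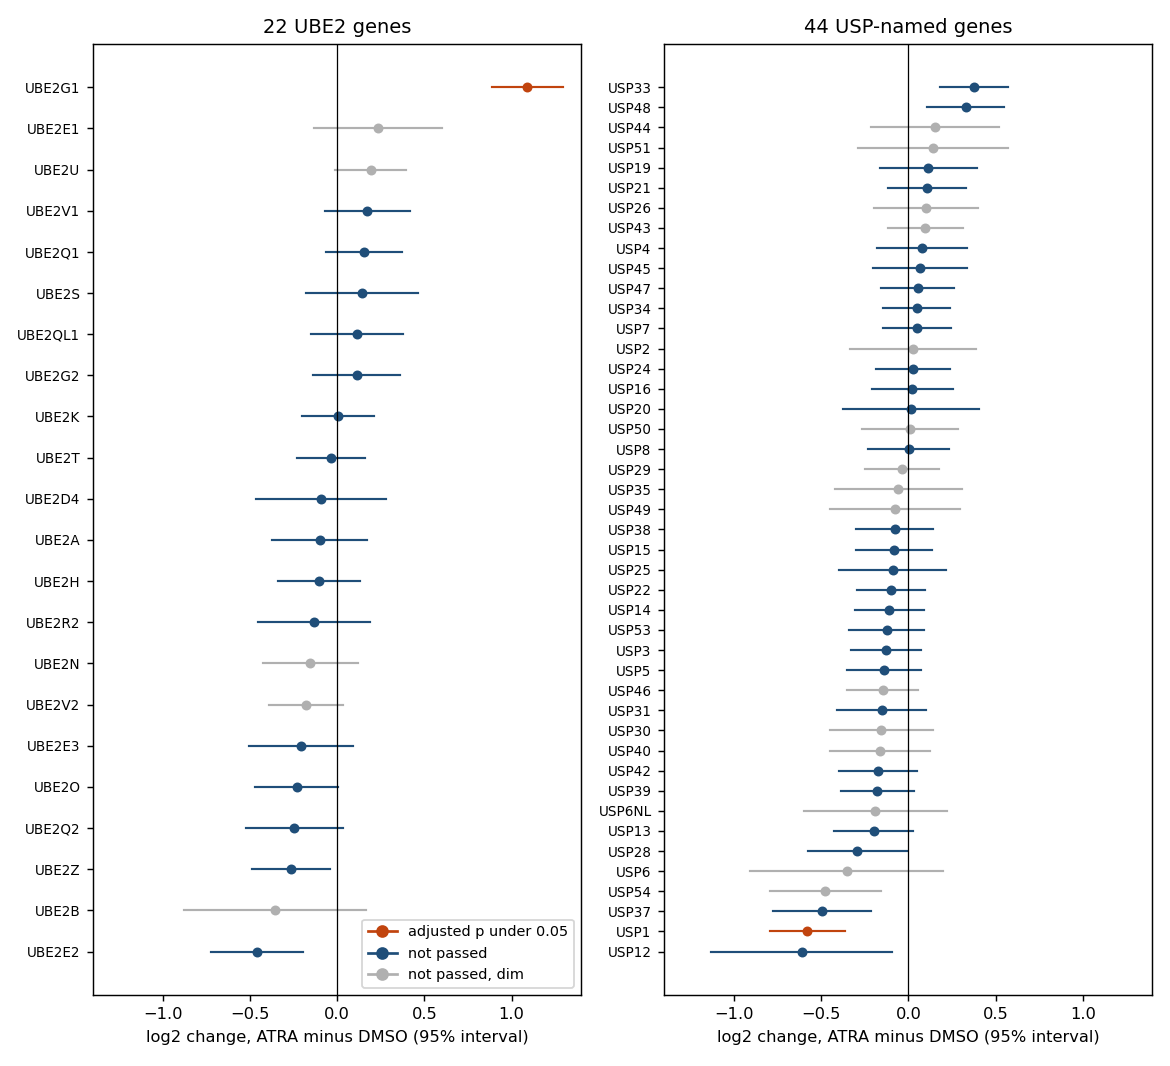
Log2 change (ATRA minus DMSO, points) with its 95% interval from limma (lines) for the 22 UBE2 genes at left and the 44 USP-named genes at right, ordered by change; red marks genes with an adjusted p under 0.05, blue genes that did not pass and grey dim genes that did not pass. UBE2G1 stands apart at 1.09, USP1 is at -0.58, and most other points lie within 0.25 of 0.

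UBE2G1 encodes an E2 that builds chains linked through lysine 48. In myeloma it is known as a partner of the cereblon ligase, the target of lenalidomide and related drugs, whose substrates it helps to ubiquitinate. Its intensity was 1443, 1410 and 1457 on the DMSO arrays and 2900, 3152 and 3130 on the ATRA arrays. Every ATRA value was far above every DMSO value, and the spread within each group was small beside the gap. The means were 1437 ± 24.0 with DMSO and 3061 ± 140 with ATRA (SD, n = 3 each), a 2.13-fold increase. On the log2 scale the change was 1.09 (SE 0.087, 95% interval 0.89 to 1.29, adjusted p = 0.00124 by limma). In bulk RNA such as this, a change in the number of cells of a kind and a change in RNA per cell cannot be told apart. The call held with each array left out (adjusted p 0.00741 to 0.0120) and with each of 9 other analysis settings (adjusted p up to 0.0236). The nearest 6 measured protein-coding genes along the chromosome, 3 on each side by the GRCh38.p14 gene order, changed by -0.39 to 0.19, and none of these 6 passed (adjusted p from 0.0815).

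USP1 encodes the deubiquitinase that, bound to its cofactor WDR48, removes single ubiquitins from the DNA clamp PCNA and from the Fanconi anaemia protein FANCD2. Its intensity was 656, 660 and 703 with DMSO and 433, 482 and 437 with ATRA. The groups did not overlap, and ATRA replicate 2 lay closest to the DMSO arrays. The means of 673 ± 26.1 and 451 ± 27.3 (SD, n = 3 each) correspond to a 1.49-fold decrease. The log2 change was -0.58 (SE 0.092, 95% interval -0.80 to -0.36, adjusted p = 0.0183 by limma). This call depended on the arrays and settings used. With 1 array left out it held only without ATRA replicate 2 (adjusted p = 0.0378) and was lost in the other 5 fits (up to 0.0790), while the change stayed between -0.63 and -0.55. In these fits the calls over all genes fell as well, from 565 to between 207 and 317. The USP1 call was also lost with the replicate number as a block (adjusted p = 0.0793) and when tested against a change of 1.2-fold (adjusted p = 0.222). It held in 7 of the 9 other analysis settings (adjusted p from 4.2e-05 by limma).

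The stretches of 250 bases before the RefSeq transcription starts of the genes that passed are shown here, 5′ to 3′ on the gene's strand, from the RefSeq promoter table on GRCh38.p14. UBE2G1 has 1 start in that table and USP1 has 2. Capitals mark 3 short motifs on either strand: the GC box (GGGCGG or CCGCCC), the CCAAT box (CCAAT or ATTGG) and the cell cycle homology region, or CHR (TTTGAA or TTCGAA, on either strand). GC boxes may overlap each other.
UBE2G1 (chr17:4366676-4366925, minus strand): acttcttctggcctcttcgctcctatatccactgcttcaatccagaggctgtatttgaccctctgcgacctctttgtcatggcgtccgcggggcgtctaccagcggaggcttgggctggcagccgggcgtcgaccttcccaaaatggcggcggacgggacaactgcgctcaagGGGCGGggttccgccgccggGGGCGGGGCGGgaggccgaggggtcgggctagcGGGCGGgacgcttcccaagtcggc
USP1, start 1 (chr1:62436145-62436394, plus strand): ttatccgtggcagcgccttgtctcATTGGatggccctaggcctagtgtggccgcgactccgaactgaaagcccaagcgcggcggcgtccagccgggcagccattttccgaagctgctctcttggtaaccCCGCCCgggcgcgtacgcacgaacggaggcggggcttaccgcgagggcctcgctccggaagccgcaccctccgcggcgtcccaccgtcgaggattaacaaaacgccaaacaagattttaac
USP1, start 2 (chr1:62436799-62437048, plus strand): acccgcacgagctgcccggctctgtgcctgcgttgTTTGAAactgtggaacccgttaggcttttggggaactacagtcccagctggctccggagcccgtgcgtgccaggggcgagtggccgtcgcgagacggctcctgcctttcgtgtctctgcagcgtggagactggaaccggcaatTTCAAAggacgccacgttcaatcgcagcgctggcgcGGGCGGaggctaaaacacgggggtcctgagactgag

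The UBE2G1 window held 4 GC boxes, and neither of the other motifs. The USP1 windows held 1 GC box each, with 1 CCAAT box before the first start and 2 CHR matches before the second. Of the 66 genes, 53 were matched in the promoter table. The CHR letters were found in 4 of the 53 (7.55%), namely UBE2T, UBE2U, USP1 and USP30, against 17.2% of all 27305 genes in the table. GC boxes were in 44 of the 53 (83.0%) against 46.2%, beside a median GC content of 69.8% in these promoters and 58.0% in all promoters. CCAAT boxes were in 18 of the 53 (34.0%) against 37.0%. A pair of retinoic acid receptor half-sites spaced by 5 bases (the DR5 element, with the central base of each half-site left free) was in 0 of the 53 genes and in 0.725% of all genes. E2F letters (TTTCCCGC, TTTGGCGC, TTTCGCGC or TTTGCCGC on either strand) were also in 0 of the 53, and in 3.40% of all genes. These are matches of letters in 250 bases and say nothing about binding.

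Behind USP1 and UBE2G1 came genes that missed the threshold in the fit reported here. USP33, a deubiquitinase that binds the von Hippel-Lindau protein, was at 112, 111 and 114 with DMSO and 142, 146 and 150 with ATRA. Its groups were tight and did not overlap, and its log2 change of 0.38 (SE 0.084) had an adjusted p of 0.0586 by limma. USP37, which removes ubiquitin from cyclin A, was at 137, 128 and 161 with DMSO and 97.1, 110 and 94.5 with ATRA, again without overlap. Its log2 change was -0.49 (SE 0.12, adjusted p = 0.0749 by limma). UBE2E2, an E2 with an N-terminal extension, was at 76.0, 81.8 and 86.3 with DMSO and 66.1, 58.3 and 53.4 with ATRA. All ATRA values were the lower ones, with a log2 change of -0.46 (SE 0.11, adjusted p = 0.0753 by limma). USP48, a nuclear deubiquitinase, was at 250, 228 and 234 with DMSO and 309, 306 and 279 with ATRA. Its log2 change was 0.33 (SE 0.093, adjusted p = 0.117 by limma), and its groups did not overlap. These 4 genes passed when the dimmer 50% of genes were left out, with the trend and robust options of eBayes, and with 16 added to each intensity (adjusted p 0.00582 to 0.0349 over these settings). These settings called more genes throughout. In that order, 15.4%, 8.92% and 8.18% of all genes tested passed, against 3.8% in the fit reported here. Of the E2 and USP genes 6, 7 and 6 passed. USP33 passed with quantile normalization too (adjusted p = 0.0479).

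The difference of USP12, -0.61 on the log2 scale, was the most negative of the 66 but did not pass (SE 0.22, adjusted p = 0.205 by limma). USP12 is another deubiquitinase that works with WDR48. It was at 32.8, 50.2 and 27.0 with DMSO and 20.6, 23.9 and 25.3 with ATRA, under the dim intensity on every array but 1. DMSO replicate 2 stood far above the other arrays, and without it the difference was -0.36. The dim UBE2B, whose groups overlapped, was at 25.2, 45.8 and 26.7 with DMSO and 23.1, 24.1 and 26.5 with ATRA, and the same DMSO array was the high one. Its difference of -0.35 became -0.08 without that array.

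**Figure D2:**
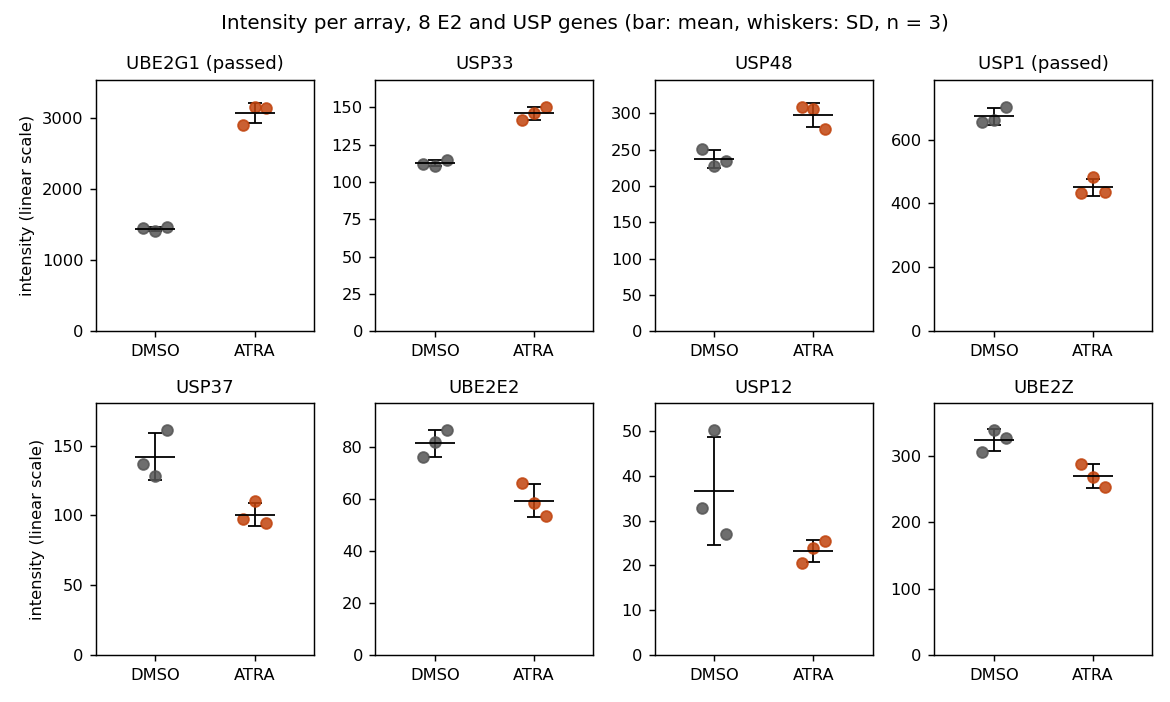
Intensity on a linear scale (vertical axes from 0) on each of the 3 DMSO arrays (grey) and 3 ATRA arrays (red) for 8 genes, with the mean as a bar and the SD as whiskers; titles mark the genes that passed. In all 8 the groups do not overlap; UBE2G1 lies near 1437 with DMSO and 3061 with ATRA, and for USP12 DMSO replicate 2 at 50.2 lies apart from the rest.

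Counting groups that do not overlap, without a test, 7 of the 66 genes had every ATRA value above every DMSO value and 18 had every ATRA value below. The shares were 10.6% and 27.3%, against 9.86% and 14.8% of all genes. In both directions together they were 25 genes (37.9%), against 24.7% of all genes. Brightness bears on this count, since of the 46 genes that were not dim 6 lay higher and 15 lower (32.6%), against 14.4% and 28% of all such genes. Read against that second background, both shares were near those of the array. Of the 29 USP-named genes that were not dim, 12 lay lower without overlap (41.4%) and 3 higher. USP12 is among these 12 and the 15 above. It escapes the dim cut of 5.06 only by its DMSO mean, 5.15 on the log2 scale against 4.53 with ATRA. Of the 17 E2s that were not dim, 3 lay lower and 3 higher. The difference between E2s and USPs was not tested.

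**Figure D3:**
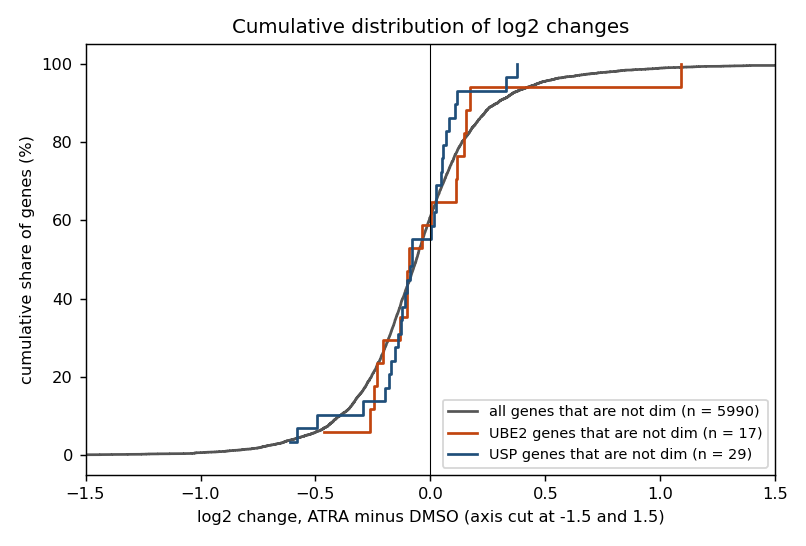
Cumulative share of genes (vertical axis, %) by log2 change, ATRA minus DMSO (horizontal axis, cut at 1.5 on either side), for all 5990 genes that were not dim (grey), the 17 such UBE2 genes (red) and the 29 such USP-named genes (blue). The 3 curves run close together in the middle, and UBE2G1 at 1.09 makes the last step of the red curve.

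Precision was enough to bound most of the changes. For 41 of the 46 genes that were not dim (89.1%), the whole 95% interval of the change lay within 1.5-fold in either direction, against 73.1% of all genes that were not dim. This count depends on the size of the change as well as on precision. The 46 were also brighter, with a median log2 level of 7.74 against 6.93 for all genes that were not dim. The change itself was under 0.25 on the log2 scale for 37 of the 46. These intervals are not adjusted for the number of genes, and they bound a change without showing that there was none.

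In the role groups that follow, passing refers to limma's adjusted p under 0.05. At an unadjusted p under 0.05, 3 of the 66 genes were higher (UBE2G1, USP33 and USP48) and 7 lower (USP1, USP37, UBE2E2, USP54, UBE2Z, USP12 and USP28). These 10 are 15.2% of the 66, against 17.9% of all genes (7.52% higher and 10.4% lower). A group below in which 0 passed and which holds none of these 10 thus had 0 by that measure too.

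Among E2s with broad use, which work with many ligases, 6 of 12 listed genes were measured and 0 passed. UBE2D4, UBE2R2, UBE2H, UBE2E2 and UBE2E3 had negative differences and the dim UBE2E1 a positive one, from -0.46 to 0.23. UBE2E3 was at 49.8, 39.9 and 51.1 with DMSO and 43.9, 37.5 and 40.0 with ATRA, so that the groups overlapped (-0.21, adjusted p = 0.457 by limma). UBE2D2 and UBE2D3 of this group were not analysed here.

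The E2s of chains linked through lysine 63, a signalling form of ubiquitin, are UBE2N and its inactive cofactors UBE2V1 and UBE2V2. Of 4 listed symbols these 3 were kept, UBE2NL having been set aside as a pseudogene, and 0 passed. UBE2V1 was at 494, 475 and 408 with DMSO and 504, 524 and 520 with ATRA, where the ATRA arrays were the higher ones by a narrow margin (0.17, adjusted p = 0.449 by limma, and 0.09 without DMSO replicate 3). UBE2N and UBE2V2 were dim, with differences of -0.15 and -0.18.

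Among E2s of DNA repair and mitosis 4 of 4 were measured and 0 passed. UBE2T, which places ubiquitin on FANCD2 with the ligase FANCL, was at 385, 383 and 367 with DMSO and 369, 364 and 375 with ATRA. The groups overlapped, and the difference of -0.04 had a 95% interval of -0.23 to 0.16. UBE2A, a human RAD6 protein that places ubiquitin on PCNA with the ligase RAD18, was at 346, 382 and 432 with DMSO and 372, 328 and 380 with ATRA (-0.10, 95% interval -0.38 to 0.17). UBE2S, which extends chains for the anaphase-promoting complex, was at 79.3, 75.5 and 81.6 with DMSO and 102, 89.8 and 72.1 with ATRA. Its ATRA arrays spanned the DMSO range on both sides (0.14, adjusted p = 0.654 by limma).

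These values can be set beside USP1, which removes the ubiquitin that UBE2T and the RAD6 proteins place. The ligase gene RAD18 was at 291, 308 and 346 with DMSO and 223, 230 and 231 with ATRA, a 1.38-fold decrease at the edge of the threshold (adjusted p = 0.0498 by limma). Leaving out any single array ended the RAD18 call (adjusted p from 0.0906 to 0.145 over the 6 fits). WDR48, the cofactor shared by USP1, USP12 and USP46, was at 325, 359 and 351 with DMSO and 413, 360 and 362 with ATRA. Its difference of 0.13 did not pass (adjusted p = 0.558 by limma), and neither did that of the dim USP46 (-0.15). This set of genes was put together after the values were seen.

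In the group of E2s of the endoplasmic reticulum and of chains linked through lysine 48, 3 of 5 listed genes were measured. UBE2G1 was the 1 that rose. UBE2G2, its nearest relative and an E2 of ER-associated degradation, was at 99.1, 83.5 and 80.4 with DMSO and 94.4, 95.4 and 93.4 with ATRA. Here the groups overlapped, and the difference of 0.11 had a 95% interval of -0.14 to 0.36, wholly below that of UBE2G1. With 1 array left out it ran from 0.05 without DMSO replicate 3 to 0.20 without DMSO replicate 1. UBE2K was at 1292, 1311 and 1353 with DMSO and 1330, 1253 and 1388 with ATRA, a difference of 0.00427 (95% interval -0.20 to 0.21). UBE2R2 (-0.13) was listed under broad use and CDC34 under other E2-type genes, so this group does not count them. CDC34 was lower without overlap but did not pass (-0.35, adjusted p = 0.111 by limma).

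The last 6 E2s lay between -0.27 and 0.19, and 0 passed. UBE2Z, which takes its ubiquitin from the E1 enzyme UBA6, was at 306, 338 and 326 with DMSO and 288, 268 and 252 with ATRA. It did not overlap between groups, had a log2 change of -0.27 (adjusted p = 0.205 by limma), and passed in 1 of the 9 other settings, eBayes with trend and robust (adjusted p = 0.0382). UBA6 itself was at 404, 405 and 415 with DMSO and 326, 320 and 355 with ATRA, also without overlap (-0.29, adjusted p = 0.136 by limma). UBE2O, a large enzyme that joins E2 and E3 functions, was at 317, 345 and 337 with DMSO and 291, 304 and 257 with ATRA (-0.23, adjusted p = 0.290 by limma). UBE2Q1 was at 220, 228 and 253 with DMSO and 260, 258 and 260 with ATRA (0.15), UBE2Q2 differed by -0.25 and UBE2QL1 by 0.12, and UBE2U was dim.

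Of the USPs listed under DNA damage, replication and mitosis, 10 of 11 were measured, and USP1 was the 1 that passed. The list ran from -0.58 to 0.33 with a median of 0.01, and 4 of its genes were lower and 1 higher without overlap, against 28% and 14.4% of all genes that were not dim (8 of these 10 were not dim). USP28, known for stabilising MYC, was at 112, 115 and 132 with DMSO and 91.3, 91.4 and 112 with ATRA. The lowest DMSO array and the highest ATRA array nearly met (-0.29, adjusted p = 0.264 by limma). USP7, which acts on MDM2 and p53, was at 1250, 1253 and 1307 with DMSO and 1296, 1307 and 1334 with ATRA, overlapping between groups (0.05, 95% interval -0.15 to 0.24). The list also held USP45 (0.07) and USP47 (0.05). USP39 (-0.18) is a splicing factor without deubiquitinase activity, and USP29 and USP44 were dim.

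Of 9 listed USPs that act on histones, 7 were measured and lay between -0.17 and 0.14, and 0 passed. USP22, the deubiquitinase of the SAGA coactivator complex, was at 570, 574 and 566 with DMSO and 527, 548 and 518 with ATRA. The ATRA arrays were all lower, by -0.10 on the log2 scale (adjusted p = 0.591 by limma). USP3 (-0.13) and USP42 (-0.17) were lower without overlap as well, as were 28% of all genes that were not dim. USP21 (0.11) and USP16 (0.02) overlapped, and USP49 and USP51 were dim.

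USP14, USP5 and USP13, listed as enzymes of the proteasome and of free ubiquitin chains, were all measured. USP14 sits on the proteasome and trims chains from its substrates. It was at 1688, 1700 and 1767 with DMSO and 1565, 1580 and 1634 with ATRA. USP5, which takes apart free chains, was at 1388, 1412 and 1442 with DMSO and 1336, 1324 and 1194 with ATRA, and its relative USP13 at 124, 112 and 124 with DMSO and 106, 97.6 and 110 with ATRA. In all 3 every ATRA array was lower than every DMSO array, as in 28% of all genes that were not dim. The differences were small, -0.11, -0.14 and -0.20 on the log2 scale, and 0 of the 3 passed (adjusted p = 0.565, 0.487 and 0.351 by limma).

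Of the USPs of the ER, mitochondria and endosomes 7 of 9 were measured, from -0.35 for the dim USP6 to 0.38 for USP33, and 0 passed. USP19, anchored in the ER membrane, was at 150, 143 and 167 with DMSO and 158, 189 and 152 with ATRA (0.12, overlapping), and its difference was 0.02 without ATRA replicate 2. USP8, an enzyme of endosomal sorting, differed by 0.00170, USP20 by 0.01 and USP25 by -0.09, and the mitochondrial USP30 was dim.

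Beside USP12 and USP46, the list of signalling USPs and WDR partners held 6 measured genes between -0.08 and 0.08, namely USP2, USP4, USP15, USP24, USP34 and USP38. USP15, a regulator of TGF-beta receptor signalling, was at 164, 149 and 163 with DMSO and 158, 148 and 144 with ATRA. USP24 was at 134, 144 and 134 with DMSO and 132, 146 and 140 with ATRA. Both overlapped between groups, with 95% intervals of -0.30 to 0.14 and -0.19 to 0.24. USP2 was dim by its brighter probe set (0.03), and its other probe set gave 0.07. USP9X was not analysed here.

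The remaining USPs were mostly dim, 6 of 8. USP53 (-0.13) and USP31 (-0.15) were the others, and 0 of the 8 passed. Of the dim ones USP54 was lower without overlap, at 29.4, 32.7 and 30.8 with DMSO and 26.7, 19.1 and 21.6 with ATRA (-0.48, adjusted p = 0.119 by limma), while USP26, USP35, USP40, USP43 and USP50 lay between -0.16 and 0.10. USP6NL was dim as well (-0.19).

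Related genes were compared within arrays through the log2 ratio of the pair, for 11 pairs put together after the values were seen. The ratio of UBE2G1 to UBE2G2 was 4.04 ± 0.16 with DMSO and 5.02 ± 0.067 with ATRA (SD, n = 3 each), a difference of 0.98. It was higher on every ATRA array than on every DMSO array. The exact permutation test (two-sided) gave p = 0.1, the smallest that 3 against 3 arrays allow, and 0.367 adjusted over the 11 pairs. The ratios of UBE2V1 to UBE2V2 (difference 0.35) and USP54 to USP53 (-0.35) did not overlap between groups either, each with 1 dim gene and the same p. The other 8 pairs overlapped, among them USP33 with USP20 (0.36) and USP28 with USP25 (-0.20), with exact p of 0.2 to 0.7. No pair could reach 0.05 in this design.

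**Figure D4:**
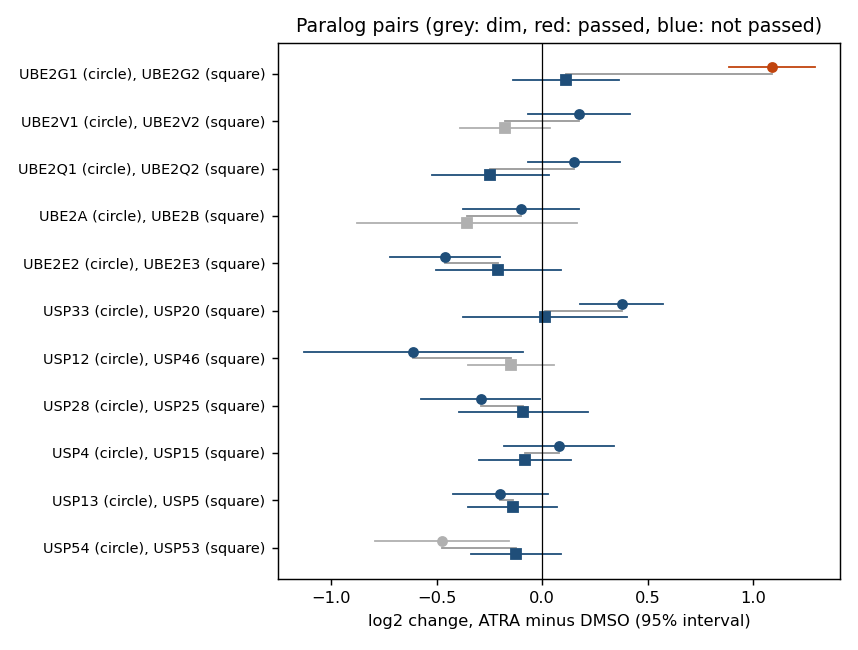
Log2 change, ATRA minus DMSO, with its 95% interval from limma for both genes of 11 related pairs (circle for the first gene named, square for the second, joined by a grey line); red passed, blue did not pass and grey is dim. The intervals of UBE2G1 and UBE2G2 do not meet, and those of the other 10 pairs overlap.

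The rest of the pathway was followed through 6 lists, of which 74 of 119 genes were measured. Of these, 1 rose and 2 fell, or 4.05%, against 3.8% of all genes and 8.23% of those that were not dim. Of the 74, 12 were dim. The median log2 change was -0.10, beside -0.01 for all genes and -0.06 for those that were not dim. The gene that rose was 1 of 26 measured in other deubiquitinase families (3.85%). The genes that fell were 2 of 17 measured partner ligases and cofactors (11.8%). PAN2 rose from 69.5 ± 5.14 with DMSO to 109 ± 12.2 with ATRA (SD, n = 3), a 1.57-fold increase (adjusted p = 0.0269 by limma). PAN2 has a USP-like domain but is known as an enzyme that shortens the poly(A) tails of RNA. UHRF1, a ligase that maintains DNA methylation, fell 1.83-fold, from 201 ± 11.6 to 110 ± 7.33 (adjusted p = 0.00514 by limma), and RAD18 fell as given above. With 1 array left out PAN2 lost its call in each of 6 fits (adjusted p up to 0.1000) and UHRF1 in 0 of 6.

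The lists without a call were the 8 measured E1 genes (median -0.19), the 8 of ubiquitin and its relatives (-0.15), the 8 of other E2-type genes (0.00143) and the 7 SUMO and NEDD8 proteases (0.07). At limma's unadjusted p under 0.05 they held 4, 4, 1 and 1 genes, or 10 of 31, against 17.9% of all genes and 30.1% of those that were not dim. UBB, a gene of polyubiquitin itself, was at 113, 104 and 112 with DMSO and 132, 176 and 211 with ATRA. All ATRA values were higher but widely spread, and the log2 difference of 0.64 did not pass (SE 0.17, adjusted p = 0.101 by limma). UBA1, the main E1 of ubiquitin, was at 2019, 2050 and 2225 with DMSO and 1807, 1935 and 1773 with ATRA, lower on every array without passing (-0.19, adjusted p = 0.344 by limma). Of the 8 E1 genes, 6 had negative differences and 2 positive ones. The largest was that of MOCS3, at 73.7, 74.8 and 82.8 with DMSO and 131, 119 and 98.2 with ATRA. Its groups did not overlap, and its log2 difference of 0.58 narrowly missed the threshold (adjusted p = 0.0557 by limma).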

How the data were processed

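RNA was biotin-labelled with the GeneChip WT PLUS reagents, per the labels' protocols. The deposited values are the authors' linear intensities for each probe set on each array, between 2.53 and 14038. RMA and limma are named, without versions or roles, per the submitters' processing notes, and the genome build is not given in the sources used here. Any compression of low values by the authors' steps remains in the folds. Values were turned to log2 with no pseudocount, and 16098 of 53617 probe sets had 1 symbol (37519 are unnamed here). The probe set with the highest mean stood for each of 14884 symbols. Pseudogenes were set aside by RefSeq gene type, matched by Entrez ID. The groups of 3 arrays were compared in R 4.3.3 by limma (version 3.58.1; lmFit, then eBayes, without a block), and 95% intervals come from the same fit. Related pairs were compared with scipy 1.17.1. The steps were tested on simulated data. No array pair was identical.

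Genes in the text are those that passed, the 8 highest and 8 lowest others that were not dim, the 5 with the highest signal and a fixed set, with further genes of each role group added after their values were seen. The genes and lists were chosen with earlier results of these data known.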

Additional observations from a re-analysis of the deposited data

How the results depend on the processing

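Over 28 named genes and 15 other settings, 394 of 420 comparisons kept their direction and side of the threshold, 7 lost a call (all for USP1), 14 gained one and 5 reversed. Only 2 of the 28 genes were called in the main fit, so most of the 394 are genes that stayed uncalled. The count of E2 and USP genes that rose was 1 in each fit without 1 array. It went from 1 to 2 with quantile normalization, and to 3 without the dimmer 50% of genes, with eBayes trend and robust, and with 16 added to intensities. The count that fell went from 1 to 0 with the replicate block and with treat at 1.2-fold, to 0 to 1 with 1 array left out, to 3 without the dimmer 50% and with 16 added, and to 4 with trend and robust. Other pathway genes called went from 3 to 1 with the block and with treat, 1 to 2 with 1 array left out, 2 with quantile normalization, 10 without the dimmer 50% and with 16 added, and 15 with trend and robust. All genes called went from 565 (3.8%) to 200 (1.34%) with the block, 169 (1.14%) with treat and 207 to 317 (1.39% to 2.13%) with 1 array left out. They were 1143 without the dimmer 50% (15.4% of the genes kept), 1327 (8.92%) with trend and robust and 1218 (8.18%) with 16 added. Apart from fewer genes or arrays, causes were not tested. The reversals were near 0. UBE2K ran from -0.0305 to 0.0430 and USP24 from -0.0106 to 0.0649 with 1 array left out, and with a common median they were at -0.0218 and -0.00115.

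Arrays with the same replicate number deviated together by a correlation of 0.00867 to 0.0170 only, against -0.0137 to -0.00269 for different numbers, so the numbers were not taken to pair the samples. Each number correlated best with itself, a hint from the data only. With 3 arrays a group and many genes near background, small changes could not be detected.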
